A study of Sus scrofa with 12 samples.

Results

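The genes described here carry out or control cell division: cyclins and their kinases, mitotic kinases and the spindle checkpoint, centromere and kinetochore proteins, kinesin motors, spindle and cytokinesis factors, condensins, and the enzymes that start anaphase. They were picked by a pattern of gene symbols, with earlier results of these data known, and make up 88 of its 30461 gene rows. Those rows carry 86 symbols, since CENPQ and HAUS7 each stand on 2 rows. Of all gene rows 56.5% carry no symbol, so the pattern could not reach division genes on such rows. Well-known division genes without a named row include CCNA2, CCNE1, CENPE and ESPL1. The libraries come from porcine oviduct epithelial cells in 3 groups of 4, profiled by bulk 3′ mRNA sequencing. Fresh cells were scraped off the oviduct lining and lysed as single cells. Spheroids, which are cells cultured as 3-dimensional clusters, were formed either in DMEM/F12 or in a medium named incubation medium. The labels give no composition for either medium, no culture time and no age, cycle stage or number of animals. Names of the DMEM/F12 libraries also carry FBS and those of the incubation medium libraries Diff, neither of which is explained. Nothing in the labels says that libraries of a group came from separate animals or cultures, so the p-values measure only the spread between these libraries, which may be technical.

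A dividing cell enters mitosis when CDK1 bound to a B-type cyclin becomes active. Chromosomes are then condensed, each centromere builds a kinetochore that holds spindle microtubules, and the checkpoint kinases keep the anaphase-promoting complex (APC/C) switched off until every kinetochore is attached. Most of these genes are transcribed in the later part of the cell cycle, so their RNA is low in resting tissue. Kinesins are a wider family of microtubule motors: some act only on the spindle, some carry cargo in resting cells, and some work in the cilium. The oviduct epithelium consists mainly of secretory cells and of multiciliated cells that no longer divide.

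Total gene counts were 5045187 to 8603774 per library, lower in every fresh cell library than in any spheroid library. Principal components were taken over only the tested genes with the most variable levels. The first held 89.6% of their variance and separated fresh cells from spheroids, and the second held 3.5% and separated the media. Epithelial markers were present in every library, with a summed level of 4051 to 4729 CPM (counts scaled to the library total, here with TMM-scaled library sizes) in fresh cells, 6546 to 8147 in DMEM/F12 spheroids and 4710.0 to 6688 in incubation medium spheroids. The 8 multiciliated cell markers summed to 789 to 1004 CPM in fresh cells, 81.8 to 207 in DMEM/F12 and 87.1 to 165 in incubation medium. The 4 oviduct secretory cell markers went from 19181 to 30173 CPM in fresh cells to between 1017 and 2071 CPM in all spheroid libraries. OVGP1, the oviduct glycoprotein, held most of that sum in fresh cells. In each medium 3 of the 4 rows were called lower than in fresh cells and 1 was called higher. Stromal markers summed to 60 to 94.6 CPM in fresh cells, 12.7 to 35.5 in DMEM/F12 and 7.25 to 13 in incubation medium, with 2 and 4 of 5 tested rows called lower than in fresh cells. Leukocyte markers summed to 18.1 to 25.9, 5.51 to 14.1 and 6.71 to 14.5 CPM, with 2 of 3 tested rows called lower in each medium. Endothelial markers summed to 41.5 to 57.2 CPM in fresh cells, 136 to 251 in DMEM/F12 and 91.1 to 148 in incubation medium; CDH5 and KDR were called higher in both media, 1 of the 3 tested rows was lower, and VWF, a defining marker, was at 0 in every fresh and DMEM/F12 library. Of all tested genes 35.7% were called lower than in fresh cells in DMEM/F12 and 35.8% in incubation medium, and 35.1% and 35.8% higher. In these bulk samples, fewer cells of a type and less RNA per cell cannot be told apart. The part of these shifts in the results on division genes was not tested, and their values are repeated beside the genes they moved with.

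Of the 88 rows, 86 passed the filter on low counts and were tested. The exceptions were KIF2B, at 0 counts in all 12 libraries, and KIF5A, at no more than 3 counts in any. Genes are called here at an adjusted p under 0.05 in edgeR's quasi-likelihood test, with Benjamini-Hochberg adjustment over all 14070 tested genes. In DMEM/F12 spheroids 61 members were higher than in fresh cells, 12 were lower and 13 were not called. The background was high, since 70.7% of all tested genes were called in that comparison, 35.1% higher and 35.7% lower. In incubation medium spheroids 59 members were higher than in fresh cells, 12 were lower and 15 were not called, against a background of 71.7% called, 35.8% higher and 35.8% lower. Fresh cells and spheroids did not overlap in 69 members for DMEM/F12 (80.2%, against 65.4% of all tested genes). For incubation medium they did not overlap in 68 (79.1%, against 64.9% of all tested genes). The median log2 fold change of the members was 1.00 for DMEM/F12 and 0.99 for incubation medium, against -0.01 over all tested genes in each. The 4 fresh libraries serve as the reference in each case, so these comparisons are not independent of each other. The counts of all 88 rows together made up 0.321, 0.309, 0.281 and 0.259% of the gene counts in fresh replicates 1 to 4. That share was 0.382, 0.414, 0.404 and 0.377% in the DMEM/F12 libraries and 0.344, 0.409, 0.42 and 0.333% in the incubation medium libraries, so no spheroid library fell as low as the highest fresh one. Wilson 95% intervals for these shares cover counting error only and did not meet. That of the highest fresh library was 0.316 to 0.325%, and that of the lowest spheroid library 0.329 to 0.337%. A large part of the fresh share was PLK2, a polo-like kinase outside mitosis, at 1249, 1144, 807 and 546 CPM in fresh replicates 1 to 4. PLK2 had means of 408 CPM in DMEM/F12 and 409 CPM in incubation medium, so the share does not follow the mitotic genes alone.

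**Figure D1:**
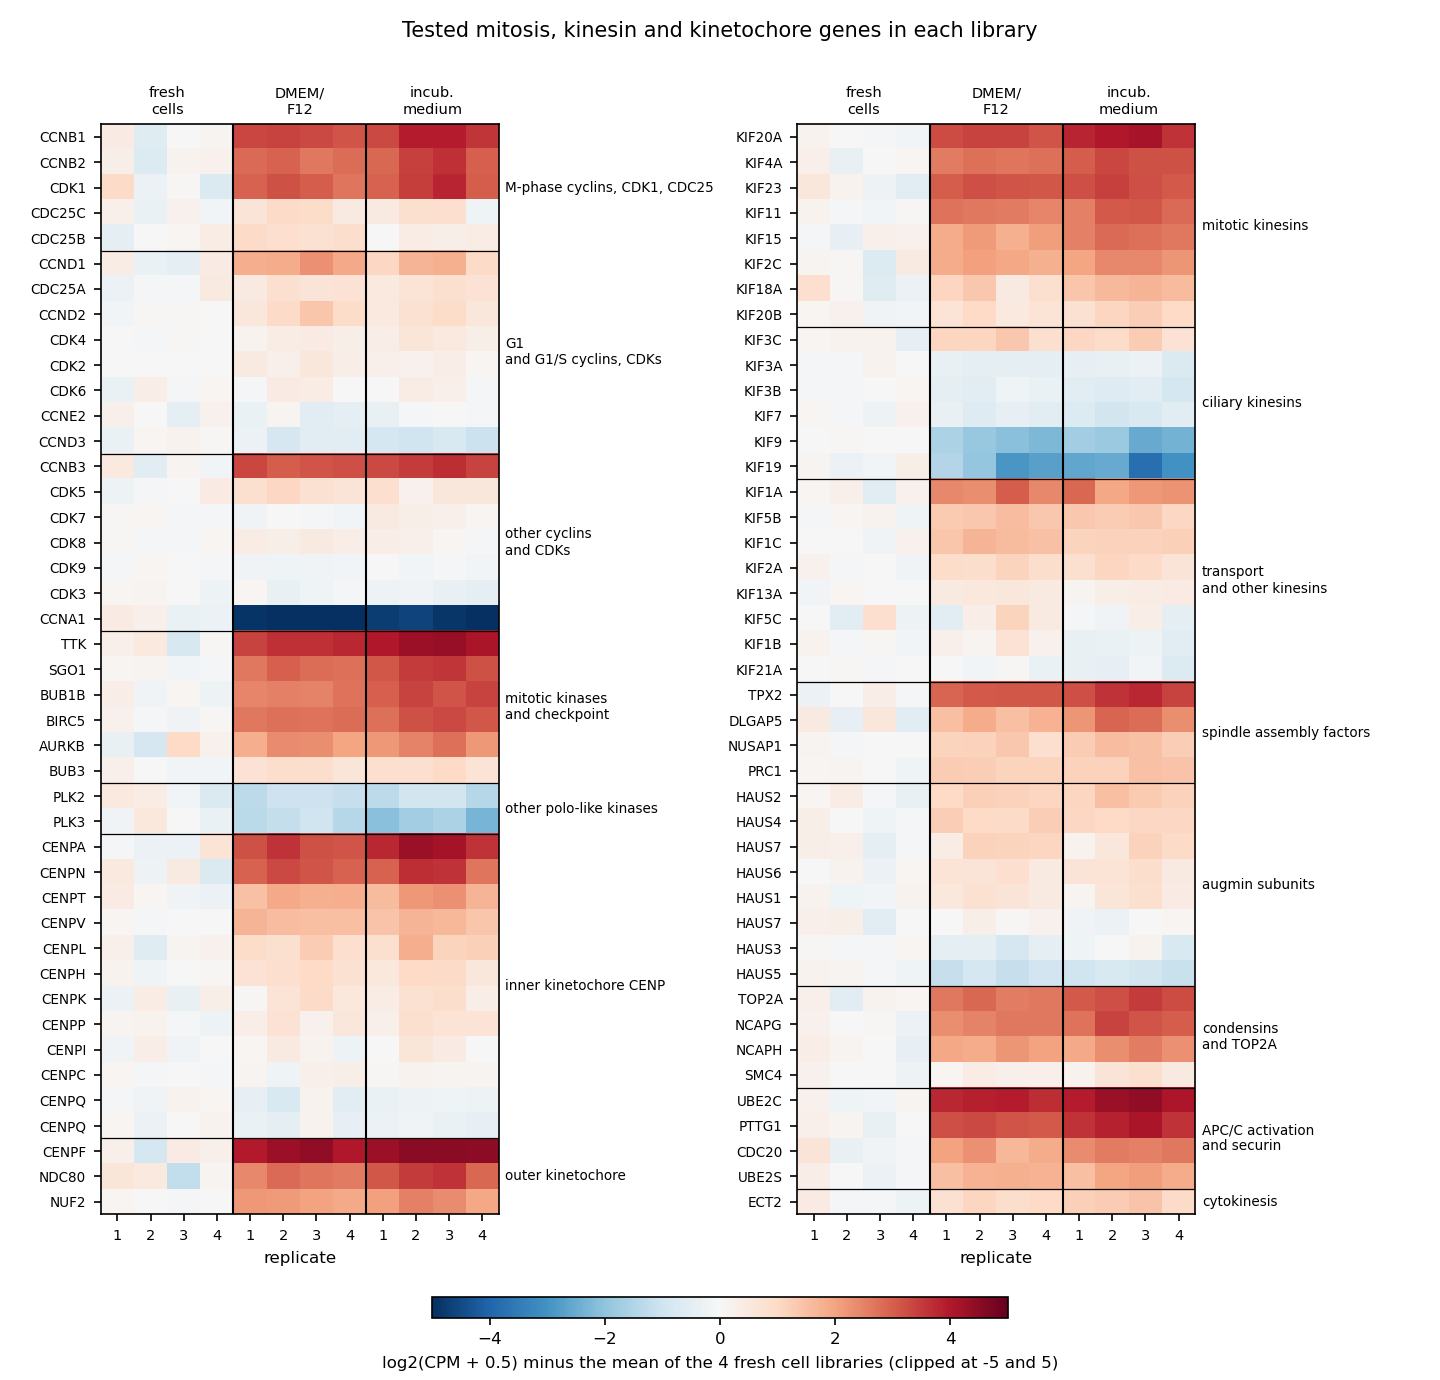
Each row is 1 of the 86 tested gene rows, grouped by role, and each column 1 library (replicates 1 to 4 of fresh cells, DMEM/F12 spheroids and incubation medium spheroids). Color gives log2(CPM + 0.5) minus the mean of the 4 fresh cell libraries, clipped at -5 and 5; CENPQ and HAUS7 appear on 2 rows each, most of the mitotic rows are red in all 8 spheroid libraries, and CCNA1, KIF9, KIF19, PLK2 and PLK3 are blue in all 8.

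The direction differed between roles. The 47 tested rows of 9 roles grouped here as mitotic (M-phase cyclins with CDK1 and CDC25, mitotic kinases, inner and outer kinetochore, mitotic kinesins, spindle assembly factors, condensins with TOP2A, APC/C activation and cytokinesis) had 41 higher and 0 lower calls in DMEM/F12, with a median log2 fold change of 2.09. In incubation medium they had 40 higher and 0 lower calls and a median of 2.45. The 39 other rows (G1 and other cyclins, polo-like kinases outside mitosis, ciliary and transport kinesins, augmin) had 20 higher and 12 lower calls in DMEM/F12 and 19 higher and 12 lower in incubation medium, with medians of 0.35 and 0.15. Of the mitotic rows 87.2% and 85.1% were called in the 2 media, and of the others 82.1% and 79.5%. Beside them stand 70.7% and 71.7% of all tested genes. This division into 2 blocks of roles was drawn after the values had been seen and is a description only. The counts depend on it: augmin, which also acts in the spindle, stands in the second block with 5 higher and 2 lower of 8 tested rows in DMEM/F12 and 5 higher and 1 lower in incubation medium.

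**Figure D2:**
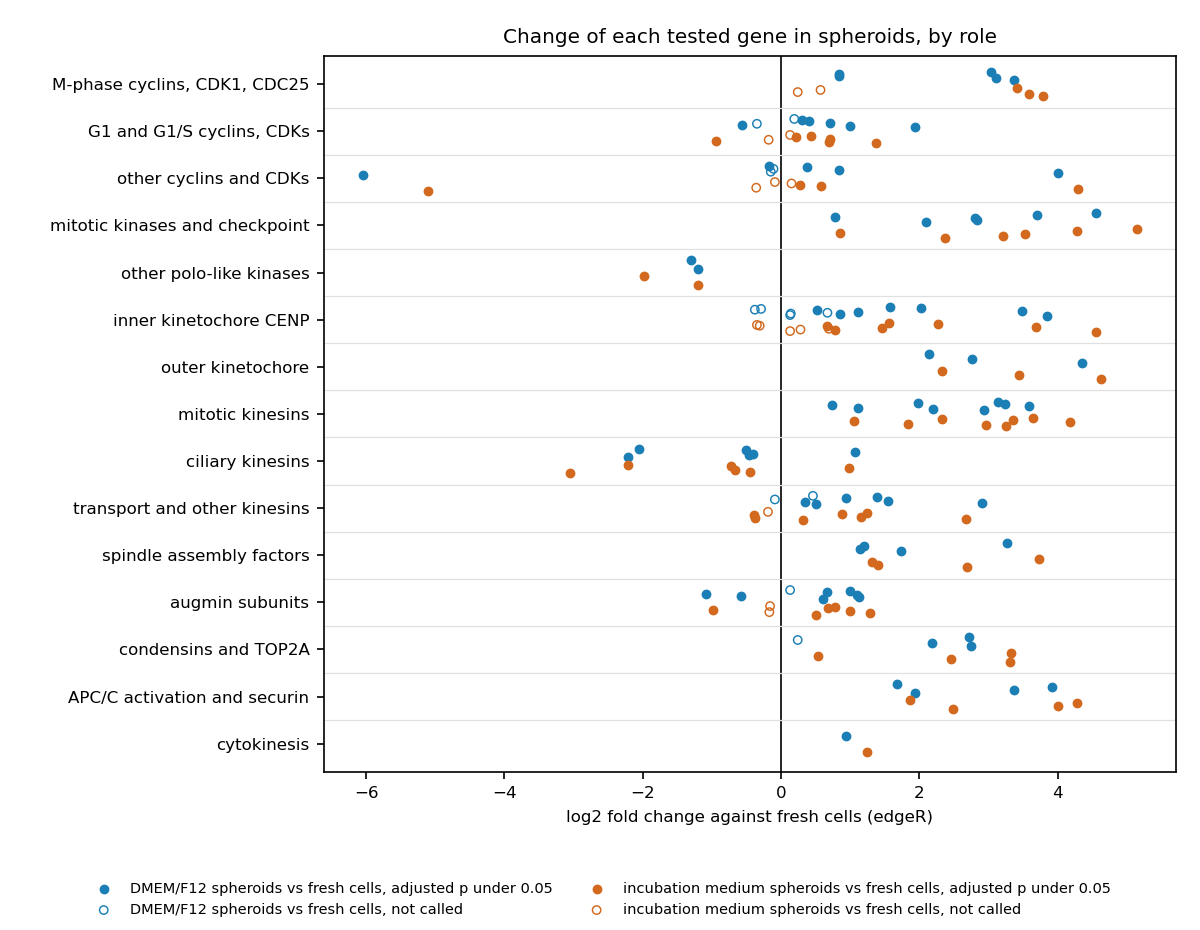
Each point is 1 tested gene row, with its role on the vertical axis and its log2 fold change against fresh cells on the horizontal axis, blue for DMEM/F12 and orange for incubation medium spheroids. Filled points passed the adjusted p threshold of 0.05; mitotic kinases, outer kinetochore genes and mitotic kinesins lie wholly to the right of 0, whereas 5 of 6 ciliary kinesins and both tested polo-like kinases outside mitosis lie to the left, and CCNA1 is the point furthest left at -6.05.

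The cyclins and the kinase that drive entry into mitosis were at a few CPM in fresh cells and higher in spheroids. All 5 tested rows of this role were called higher in DMEM/F12 and 3 of 5 in incubation medium. CCNB1 (ENSSSCG00025044799), a B-type cyclin that activates CDK1, measured 6.25, 2.86, 4.66 and 5.08 CPM in fresh replicates 1 to 4, 51, 52.3, 49.4 and 43.9 CPM in DMEM/F12 spheroids and 48.8, 76.2, 76.9 and 60.3 CPM in incubation medium spheroids; values of other genes follow the same order of replicates. Every spheroid library thus lay above every fresh one, and CCNB1 was 10.4-fold higher in DMEM/F12 (log2 fold change 3.37, SE 0.20, adjusted p = 3.99e-09) and 13.8-fold higher in incubation medium (log2 fold change 3.79, SE 0.20, adjusted p = 1.32e-09). CDK1, the kinase itself, rose by a log2 fold change of 3.03 in DMEM/F12 (adjusted p = 8.97e-07) and 3.41 in incubation medium (adjusted p = 2.34e-07). CCNB2, the other mitotic B-type cyclin, rose by 3.11 and 3.59 on the log2 scale (adjusted p = 1.33e-07 and 2.64e-08). The phosphatases that switch CDK1 on had smaller fold changes. CDC25B (ENSSSCG00025053308) stood at 38.4, 53.7, 56.3 and 67.8 CPM in fresh cells, 102, 96, 90.2 and 98.8 CPM in DMEM/F12 and 52.2, 68.1, 65.9 and 68.4 CPM in incubation medium. Its DMEM/F12 values lay above all others (log2 fold change 0.84, SE 0.14, adjusted p = 8.28e-05), while its incubation medium values overlapped the fresh ones (log2 fold change 0.24, SE 0.14, adjusted p = 0.145). Without fresh replicate 4 or without incubation medium replicate 1 the adjusted p for CDC25B in incubation medium was 0.0274 and 0.0461, so that call depended on single libraries. CDC25C was called in DMEM/F12 (log2 fold change 0.83, adjusted p = 0.0132) but not in incubation medium (0.57, adjusted p = 0.0755). It was called there with the replicate number as a block (adjusted p = 0.0435) and without incubation medium replicate 4 (adjusted p = 0.0098).

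Among kinases of mitosis, survivin and the spindle checkpoint, 6 of 6 tested rows were higher in DMEM/F12, with a median log2 fold change of 2.82. In incubation medium 6 of 6 were higher, with a median of 3.37. AURKA, PLK1, PLK4, BUB1 and SGO2 had no row under their symbols, so nothing is known of them here. TTK (ENSSSCG00025040577), the kinase that starts checkpoint signalling at unattached kinetochores, was nearly absent from fresh cells at 0.521, 0.715, 0 and 0.391 CPM, which is 0 to 4 counts per library. It reached 8.5, 10.3, 10.2 and 11.4 CPM in DMEM/F12 and 13.2, 16.3, 17.3 and 14.3 CPM in incubation medium, which is 70 to 95 and 107 to 141 counts per library. The fitted rise of TTK was 4.56 on the log2 scale in DMEM/F12 (SE 0.33, adjusted p = 2.27e-08) and 5.15 in incubation medium (SE 0.32, adjusted p = 5.3e-09), the largest upward change among the members in each comparison. BUB1B (ENSSSCG00025014217), the checkpoint protein BubR1 that binds and restrains CDC20, went from 2.26, 1.43, 1.86 and 1.37 CPM to 11.3, 12.2, 11.9 and 14 CPM in DMEM/F12 and 17, 22.1, 19.2 and 22.3 CPM in incubation medium. These groups did not overlap, and the log2 fold changes were 2.81 (adjusted p = 1.06e-08) and 3.52 (adjusted p = 1.1e-09). BIRC5 (ENSSSCG00025054674), survivin, which places Aurora B at the centromere, measured 5.38, 4.29, 3.92 and 4.69 CPM in fresh cells, 30.5, 33.6, 32.2 and 34 CPM in DMEM/F12 and 33.2, 45.7, 48.7 and 43.2 CPM in incubation medium. BIRC5 had a log2 fold change of 2.83 (SE 0.15, adjusted p = 1.25e-09) in DMEM/F12 and 3.21 (SE 0.15, adjusted p = 3.5e-10) in incubation medium. Aurora B itself, AURKB, rose by 2.09 and 2.37 on the log2 scale (adjusted p = 2.74e-05 and 7.4e-06). SGO1, shugoshin, which protects centromeric cohesin, had no more than 3 counts in any fresh library. Summed over 4 libraries it had 10 counts in fresh cells, 202 in DMEM/F12 and 290 in incubation medium, a ratio of counts per total of 13.5 (95% counting interval 7.17 to 28.5) and 20.1 (10.8 to 42.4). BUB3 (ENSSSCG00025021469), a checkpoint protein also present outside mitosis, was already at 70.1, 59, 53 and 52.4 CPM in fresh cells and rose to 97.5, 108, 108 and 89.9 CPM and 105, 106, 118 and 92.9 CPM. BUB3 had log2 fold changes of 0.78 and 0.85 (adjusted p = 1.71e-05 and 7.46e-06).

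**Figure D3:**
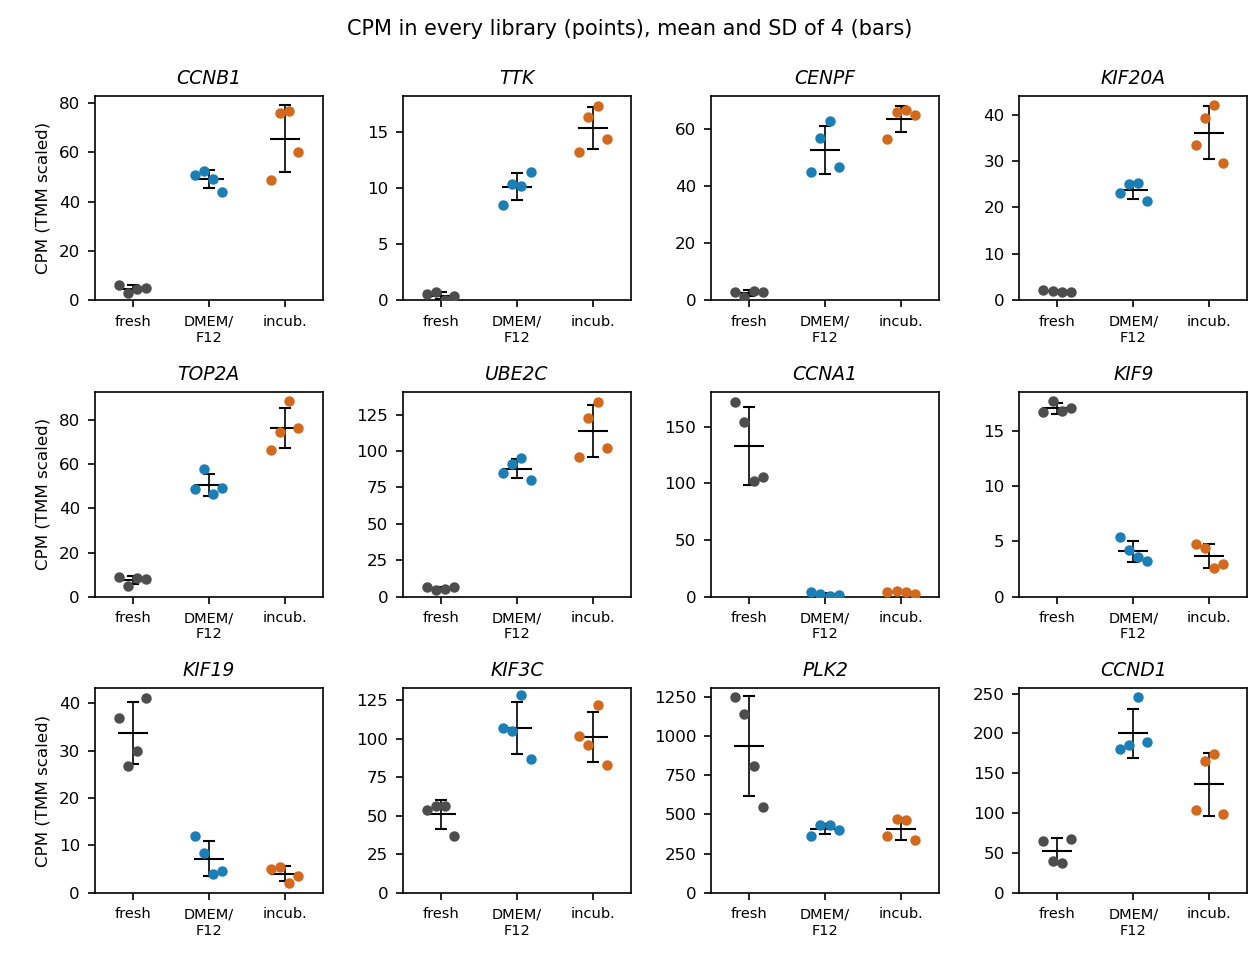
Points are the CPM of single libraries for 12 members, on a linear axis that starts at 0, in fresh cells (grey), DMEM/F12 spheroids (blue) and incubation medium spheroids (orange). Horizontal and vertical bars are the mean and SD of 4 libraries; CCNB1, TTK, CENPF, KIF20A, TOP2A, UBE2C, KIF3C and CCND1 are higher in all 8 spheroid libraries than in any fresh one, and CCNA1, KIF9, KIF19 and PLK2 are lower in all 8.

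Kinetochore genes were called higher or not called, and none was called lower. On the outer side, which holds the microtubules, 3 of 3 tested rows were higher in each medium. CENPF (ENSSSCG00025071238), a large protein of the outer corona, measured 2.95, 1.07, 3.36 and 2.93 CPM in fresh cells, 44.9, 56.6, 62.6 and 46.6 CPM in DMEM/F12 and 56.5, 65.8, 66.5 and 64.9 CPM in incubation medium. It was 20.4-fold higher in DMEM/F12 (log2 fold change 4.35, SE 0.21, adjusted p = 5.26e-10) and 24.5-fold higher in incubation medium (log2 fold change 4.62, SE 0.20, adjusted p = 2.98e-10), with no overlap between fresh cells and spheroids. NUF2 (ENSSSCG00025074127) and NDC80 (ENSSSCG00025032146) are partners in the complex that couples the kinetochore to microtubules. NUF2 went from 5.9, 5.37, 5.22 and 5.47 CPM to 26.1, 25.9, 23.8 and 21.5 CPM in DMEM/F12 and 24.2, 33.9, 30.6 and 22.4 CPM in incubation medium (log2 fold changes 2.14 and 2.33, adjusted p = 2.5e-08 and 1.07e-08). NDC80 went from 2.6, 2.33, 0.373 and 1.76 CPM to 10.4, 14.1, 12.4 and 11.7 CPM and 16.9, 22.8, 24.2 and 14.3 CPM. NDC80 had log2 fold changes of 2.76 and 3.44 (adjusted p = 2.47e-06 and 2.02e-07). On the inner, centromeric side 7 of 12 tested rows were higher and 0 lower in DMEM/F12 (median log2 fold change 0.76). In incubation medium 7 of 12 were higher and 0 lower (median 0.74). That is 58.3% called in each medium, below the 70.7% and 71.7% of all tested genes. The share called higher was above the 35.1% and 35.8% of all tested genes. CENPA (ENSSSCG00025063212), the histone H3 variant that marks centromeric chromatin, led them. It stood at 0.694, 0.537, 0.559 and 1.56 CPM in fresh cells, 11.1, 15.4, 11.1 and 10.8 CPM in DMEM/F12 and 16.8, 25.1, 22.6 and 15.2 CPM in incubation medium. CENPA had a log2 fold change of 3.84 (SE 0.31, adjusted p = 7.44e-08) in DMEM/F12 and 4.56 (SE 0.30, adjusted p = 1e-08) in incubation medium. CENPN, which reads the CENPA nucleosome, rose by 3.48 and 3.68 on the log2 scale (adjusted p = 5.86e-07 and 2.97e-07), and CENPT, a direct link to the NDC80 complex, by 2.02 and 2.27 (adjusted p = 1.16e-05 and 3.16e-06). CENPV (ENSSSCG00025070487), which helps to organize centromeric heterochromatin, went from 47.6, 41.1, 44.4 and 45.1 CPM to 146, 129.5, 126 and 128 CPM and 122, 147, 140.0 and 118 CPM. CENPV had a log2 fold change of 1.57 (SE 0.09, adjusted p = 3.63e-09) in DMEM/F12 and 1.56 (SE 0.09, adjusted p = 3.87e-09) in incubation medium. CENPH (ENSSSCG00025044936), a subunit of the constitutive centromere network, went from 20.1, 15.4, 18.1 and 18.6 CPM to 29.6, 33, 36.6 and 30.8 CPM and 26.3, 36, 35.4 and 26.6 CPM. CENPH had log2 fold changes of 0.85 and 0.78 (adjusted p = 4.91e-05 and 0.000105). CENPL rose by 1.11 and 1.46 (adjusted p = 0.00558 and 0.000633) and CENPP by 0.52 and 0.67 (adjusted p = 0.0417 and 0.0109). The DMEM/F12 call of CENPP was lost without fresh replicate 3 (0.0816), fresh replicate 4 (0.109), DMEM/F12 replicate 2 (0.108) or DMEM/F12 replicate 4 (0.0798), with the adjusted p in parentheses. It was also lost in DESeq2 (0.0878), with a filter at a mean count of at least 10 (0.0521) or with all libraries thinned to the smallest total (0.0725).

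The inner kinetochore rows that were not called were CENPC, CENPI, CENPK and both rows of CENPQ. CENPC, the scaffold of the centromere network, had log2 fold changes of 0.13 and 0.13 (adjusted p = 0.366 and 0.336), although without DMEM/F12 replicate 2 it was called in DMEM/F12 (adjusted p = 0.0496). CENPI had 0.14 and 0.28 (adjusted p = 0.583 and 0.252). CENPK had 0.67 and 0.69 (adjusted p = 0.0637 and 0.0556) and was called in both media with the replicate block (adjusted p = 0.0408 and 0.0329). Leaving out single libraries also brought CENPK under the threshold, namely fresh replicate 2 (0.0419) or DMEM/F12 replicate 1 (0.0231) for DMEM/F12 and fresh replicate 2 (0.0367), incubation medium replicate 1 (0.0455) or incubation medium replicate 4 (0.0394) for incubation medium. The 2 rows of CENPQ had counts that were not whole in 6 libraries each, so they are uncertain. Without DMEM/F12 replicate 3 both were called lower than in fresh cells (adjusted p = 0.00902 and 0.0496).

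All 8 tested mitotic kinesins were higher in DMEM/F12 (median log2 fold change 2.57) and all 8 in incubation medium (median 3.10). Their summed level was 18.6 to 26.4 CPM in fresh cells, 108 to 123 CPM in DMEM/F12 and 132 to 164 CPM in incubation medium, 3 ranges that do not overlap. KIF20A (ENSSSCG00025050990), a motor that brings the chromosomal passenger complex to the central spindle, measured 2.26, 1.97, 1.86 and 1.76 CPM in fresh cells. It measured 23.1, 25, 25.2 and 21.5 CPM in DMEM/F12 and 33.5, 39.3, 42 and 29.5 CPM in incubation medium, 11.9-fold (log2 fold change 3.58, SE 0.17, adjusted p = 4.71e-10) and 18.2-fold higher (log2 fold change 4.18, SE 0.16, adjusted p = 8.91e-11). KIF23 (ENSSSCG00025049494), the motor of the centralspindlin complex in cytokinesis, went from 4.34, 3.22, 2.24 and 1.76 CPM to 25.9, 29.9, 27.9 and 27.6 CPM and 29.8, 34, 29.5 and 27 CPM. KIF23 had log2 fold changes of 3.24 and 3.35 (adjusted p = 2.75e-09 and 1.91e-09). KIF15 (ENSSSCG00025042669), which helps to keep the spindle bipolar, went from 1.74, 1.25, 2.24 and 2.15 CPM to 7.77, 9.51, 7.4 and 9.23 CPM and 12.6, 16, 15.2 and 13.7 CPM. KIF15 had log2 fold changes of 2.20 and 2.96 (adjusted p = 2.06e-07 and 8.35e-09). In each of these 3 genes all spheroid libraries lay above all fresh ones. KIF11, the main motor that pushes spindle poles apart, rose by 2.94 and 3.25 (adjusted p = 1.26e-08 and 4.42e-09). KIF4A, a chromosome-bound kinesin that shortens the midzone with PRC1, rose by 3.13 and 3.64 (adjusted p = 5.18e-09 and 1.1e-09), and KIF2C, which takes apart wrongly attached microtubules, by 1.98 and 2.33 (adjusted p = 7.53e-07 and 1.32e-07). KIF20B rose by 0.74 and 1.05 (adjusted p = 0.000703 and 2.97e-05). KIF18A, which aligns chromosomes at the metaphase plate, was the least certain, with 1.11 in DMEM/F12 (adjusted p = 0.0224) and 1.84 in incubation medium (adjusted p = 0.000588). Its DMEM/F12 values overlapped the fresh ones, and that call was lost without fresh replicate 3 (0.069), fresh replicate 4 (0.0647) or DMEM/F12 replicate 2 (0.0676).

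The 4 tested spindle assembly factors were higher in each medium, with medians of 1.46 and 2.04. TPX2, which activates Aurora A and nucleates spindle microtubules, rose by 3.26 and 3.73 on the log2 scale (adjusted p = 1.76e-09 and 4.8e-10). NUSAP1 (ENSSSCG00025015157), which bundles microtubules around chromosomes, went from 27.6, 23.6, 24.8 and 25.4 CPM to 54.9, 57.2, 65.5 and 46.3 CPM in DMEM/F12 and 62.1, 75, 71.4 and 59.8 CPM in incubation medium. NUSAP1 had a log2 fold change of 1.14 (SE 0.12, adjusted p = 7.08e-07) in DMEM/F12 and 1.40 (SE 0.12, adjusted p = 8.72e-08) in incubation medium. PRC1 (ENSSSCG00025047107), which bundles antiparallel microtubules in the midzone, went from 18.7, 19.3, 17 and 15.2 CPM to 43.2, 41.3, 38.8 and 38.1 CPM and 39.3, 39.3, 48.7 and 47.2 CPM. PRC1 had log2 fold changes of 1.20 and 1.31 (adjusted p = 2.07e-07 and 8.41e-08). DLGAP5 (ENSSSCG00025064943), a stabilizer of kinetochore fibers, went from 3.65, 1.79, 4.1 and 1.56 CPM to 8.26, 10.7, 8.32 and 9.83 CPM and 13.8, 22.9, 20.8 and 14.8 CPM. DLGAP5 had log2 fold changes of 1.73 and 2.69 (adjusted p = 6.59e-05 and 6.2e-07). In all 3 of them the fresh values lay below every spheroid value.

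Augmin, the complex that branches new microtubules from existing ones inside the spindle, was mixed. Of its 8 tested rows 5 were higher and 2 lower in DMEM/F12, and 5 higher and 1 lower in incubation medium. HAUS4 (ENSSSCG00025075834) went from 56.2, 45.8, 39.2 and 42.8 CPM to 108, 90.3, 88.2 and 108 CPM and 92.8, 91, 93 and 92.9 CPM, above the fresh libraries in each case. HAUS4 had a log2 fold change of 1.10 (SE 0.11, adjusted p = 5.71e-07) in DMEM/F12 and 1.00 (SE 0.11, adjusted p = 1.37e-06) in incubation medium. HAUS1 (ENSSSCG00025049720) went from 23.1, 17.7, 18.5 and 23.4 CPM to 30, 34.7, 32.4 and 28.4 CPM and 22.4, 31.1, 36.5 and 27.5 CPM; its incubation medium values overlapped the fresh ones (0.60 and 0.50 on the log2 scale, adjusted p = 0.00217 and 0.00706). HAUS2 rose by 1.12 and 1.28 (adjusted p = 8.87e-06 and 2.28e-06) and HAUS6 by 0.66 and 0.68 (adjusted p = 0.000513 and 0.000419). HAUS5 went the other way, with -1.08 and -0.98 (adjusted p = 4.42e-06 and 1.09e-05). HAUS3 was lower in DMEM/F12 (-0.58, adjusted p = 0.0107) and not called in incubation medium (-0.17, adjusted p = 0.404). The 2 rows of HAUS7 had counts that were not whole in 6 libraries each, so they are uncertain: one was called higher in each medium, the incubation medium call being lost without fresh replicate 3 (adjusted p = 0.0636) or incubation medium replicate 3 (0.064), and the other was called in neither.

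Chromosome compaction and exit from mitosis were represented by condensin subunits, topoisomerase and the enzymes around the APC/C. TOP2A (ENSSSCG00025037464), the topoisomerase that untangles sister chromatids, went from 9.03, 5.01, 8.58 and 8.01 CPM in fresh cells to 48.7, 57.7, 46.6 and 49.5 CPM in DMEM/F12 and 66.6, 74.9, 88.6 and 76.7 CPM in incubation medium. TOP2A had a log2 fold change of 2.72 (SE 0.15, adjusted p = 2.55e-09) in DMEM/F12 and 3.32 (SE 0.15, adjusted p = 4.02e-10) in incubation medium. The condensin I subunits NCAPG and NCAPH rose by 2.75 and 2.18 in DMEM/F12 (adjusted p = 2.11e-08 and 4.74e-07) and by 3.31 and 2.45 in incubation medium (adjusted p = 3.22e-09 and 1.28e-07). SMC4 (ENSSSCG00025060021), an ATPase shared by both condensin complexes, was at 50, 42.6, 43.1 and 36.1 CPM in fresh cells and changed less, to 46, 55.1, 51 and 50.6 CPM and 48.7, 67.2, 75.7 and 58.7 CPM. It was called in incubation medium (log2 fold change 0.54, adjusted p = 0.00193), where 1 library overlapped the fresh ones. In DMEM/F12 its log2 fold change was 0.24 (adjusted p = 0.122), under the threshold only when library totals replaced TMM scaling (0.0444), in limma (0.0382) or over whole counts alone (0.0465). All 4 tested rows of APC/C activation and securin were higher in each medium. UBE2C (ENSSSCG00025064755), the enzyme that loads ubiquitin for the APC/C, went from 6.77, 4.83, 5.22 and 6.45 CPM to 84.8, 91, 95.1 and 80.2 CPM and 96, 123, 134 and 102 CPM, all above the fresh libraries. UBE2C had a log2 fold change of 3.91 (SE 0.15, adjusted p = 6.63e-11) in DMEM/F12 and 4.28 (SE 0.15, adjusted p = 2.74e-11) in incubation medium. UBE2S (ENSSSCG00025055730), which extends the ubiquitin chain, went from 45.5, 35.4, 29.5 and 34.4 CPM to 101, 119, 124 and 121 CPM and 103, 142, 153 and 132 CPM. UBE2S had log2 fold changes of 1.68 and 1.87 (adjusted p = 1.17e-07 and 4.23e-08). PTTG1 (ENSSSCG00025029325), securin, which holds separase inactive, went from 3.12, 2.86, 1.86 and 2.54 CPM to 27.9, 29.7, 26.3 and 24.9 CPM and 36.7, 43.7, 51.1 and 37 CPM. PTTG1 had a log2 fold change of 3.37 (SE 0.17, adjusted p = 1.02e-09) in DMEM/F12 and 4.00 (SE 0.17, adjusted p = 1.76e-10) in incubation medium. None of these 3 genes had a spheroid library within the fresh range. CDC20, the APC/C activator that the checkpoint holds back, rose by 1.93 and 2.49 (adjusted p = 5.21e-07 and 4.22e-08). ECT2 (ENSSSCG00025020389), the exchange factor that sets the cleavage furrow, went from 14.8, 10.7, 10.3 and 9.38 CPM to 19.3, 23.9, 20.9 and 22.9 CPM and 26.2, 27.6, 30.7 and 22.3 CPM. ECT2 had log2 fold changes of 0.94 and 1.24 (adjusted p = 5.49e-05 and 3.58e-06).

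The G1 genes, which respond to growth signals and commit a cell to replication, did not all move in 1 direction. In each medium 5 of 8 tested rows were higher and 1 was lower. Among the D-type cyclins, CCND1 rose by 1.93 in DMEM/F12 and 1.37 in incubation medium on the log2 scale (adjusted p = 3.27e-06 and 7.96e-05), and CCND2 by 1.00 and 0.69 (adjusted p = 2.63e-05 and 0.000708). CCND3 (ENSSSCG00025050171) fell, from 58.7, 80, 83.3 and 76.6 CPM to 59.5, 41.5, 50.2 and 49.7 CPM in DMEM/F12 (log2 fold change -0.57, SE 0.13, adjusted p = 0.000948) and 40.4, 36.5, 43.5 and 35.1 CPM in incubation medium (log2 fold change -0.94, SE 0.13, adjusted p = 1.26e-05). Only the incubation medium values of CCND3 lay clear of the fresh range. CDK4 (ENSSSCG00025022032), a partner of the D-type cyclins, was 108, 103, 112 and 110.2 CPM in fresh cells, 123, 139, 143 and 131 CPM in DMEM/F12 and 136, 165, 153 and 131 CPM in incubation medium, a small rise without overlap (0.30 and 0.43, adjusted p = 0.00581 and 0.00043). CDK6, the other partner, was not called (log2 fold change 0.19, adjusted p = 0.284, and 0.13, adjusted p = 0.45). CDK2 (ENSSSCG00025042960), the kinase of S phase, was 129, 124, 127 and 128 CPM in fresh cells, 172, 149.6, 190.0 and 162 CPM in DMEM/F12 and 152, 146, 159 and 136 CPM in incubation medium (0.41 and 0.22, adjusted p = 0.000491 and 0.0262). The incubation medium call of CDK2 was lost without fresh replicate 2 (0.0583) or incubation medium replicate 3 (0.057), and its counts were not whole in 9 libraries. That call was also lost with a filter at a mean count of at least 10 (0.0534) or with all libraries thinned to the smallest total (0.0806). CDC25A, the phosphatase of the G1/S step, rose by 0.70 and 0.71 (adjusted p = 0.00486 and 0.00429). CCNE2, an E-type cyclin that partners CDK2, was not called in either comparison (-0.35 and -0.18, adjusted p = 0.26 and 0.577).

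Outside the mitotic and G1 sets, the cyclins CCNA1 and CCNB3, both best known from germ cells, changed in opposite directions. CCNA1 (ENSSSCG00025054410) was at 172, 154, 102 and 106 CPM in fresh cells and fell to 3.89, 2.32, 0.264 and 1.44 CPM in DMEM/F12 and 4.41, 4.8, 3.93 and 2.28 CPM in incubation medium. It was 66.0-fold lower in DMEM/F12 (log2 fold change -6.05, SE 0.35, adjusted p = 3.37e-09) and 34.4-fold lower in incubation medium (log2 fold change -5.10, SE 0.32, adjusted p = 7e-09), in DMEM/F12 the largest change of any member in either direction. CCNB3 (ENSSSCG00025072079) was at 0.868, 0.179, 0.559 and 0.391 CPM, which is 1 to 5 counts per library, and rose to 9.35, 7.42, 8.06 and 8.51 CPM and 9.05, 10.3, 11.9 and 9.52 CPM. CCNB3 had a log2 fold change of 4.00 (SE 0.28, adjusted p = 1.71e-08) in DMEM/F12 and 4.29 (SE 0.27, adjusted p = 7.39e-09) in incubation medium. In both genes fresh cells and spheroids did not overlap. All 8 tested multiciliated cell markers were also called lower in each medium, as were 3 of 4 secretory cell markers. The multiciliated sum had means of 871 CPM in fresh cells, 133 CPM in DMEM/F12 and 121 CPM in incubation medium. The secretory sum had means of 26799.7, 1408 and 1503 CPM in the same order. The part of either marker shift in the fall of CCNA1 was not tested. Several kinases of this set serve transcription more than division. CDK9 (ENSSSCG00025046748), which releases paused RNA polymerase, was 172, 189, 181 and 174 CPM in fresh cells, 158, 152, 159.7 and 164 CPM in DMEM/F12 (log2 fold change -0.17, SE 0.07, adjusted p = 0.0328) and 179.7, 161, 171 and 163 CPM in incubation medium (log2 fold change -0.09, SE 0.07, adjusted p = 0.265). The DMEM/F12 call of CDK9 was lost without fresh replicate 2 (0.104), fresh replicate 3 (0.0687), DMEM/F12 replicate 1 (0.0872), DMEM/F12 replicate 2 (0.125), DMEM/F12 replicate 3 (0.0709) or DMEM/F12 replicate 4 (0.0605). That call was also lost with library totals (0.213), in limma (0.197), without the filter on low counts (0.34) or with only the 2 groups compared (0.0515). CDK7 (ENSSSCG00025045641), the CDK-activating kinase and part of TFIIH, was 31.6, 32.9, 28.5 and 28.9 CPM in fresh cells, 26.7, 30.4, 28.5 and 27.8 CPM in DMEM/F12 and 41.5, 37.3, 36.7 and 33 CPM in incubation medium. CDK7 was called higher in incubation medium (log2 fold change 0.28, SE 0.09, adjusted p = 0.0126) and not in DMEM/F12 (log2 fold change -0.11, SE 0.09, adjusted p = 0.315), its counts were not whole in any of the 12 libraries, and with all libraries thinned to the smallest total its adjusted p was 0.0501. CDK8, a kinase of the Mediator complex, was called in DMEM/F12 (0.37, adjusted p = 0.00611) and in incubation medium only without replicate 4 of that medium (adjusted p = 0.0375). CDK5, known from postmitotic neurons, rose by 0.83 and 0.57 (adjusted p = 0.000469 and 0.00763).

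The kinesins of the cilium went against the mitotic ones: 5 of 6 tested rows were lower in DMEM/F12 and 5 of 6 in incubation medium. That is 83.3% in each, beside 35.7% and 35.8% of all tested genes called lower. KIF19 (ENSSSCG00025067667), which trims the length of motile cilia, was 37, 26.8, 30 and 41.2 CPM in fresh cells, 11.9, 8.35, 3.96 and 4.67 CPM in DMEM/F12 and 5.12, 5.46, 1.97 and 3.62 CPM in incubation medium. Every spheroid library lay below every fresh one. KIF19 had a log2 fold change of -2.22 (SE 0.31, adjusted p = 1.61e-05) in DMEM/F12 and -3.06 (SE 0.33, adjusted p = 1.33e-06) in incubation medium. KIF9 (ENSSSCG00025040853), a motor of the central apparatus of motile cilia, went from 16.7, 17.7, 16.8 and 17 CPM to 5.34, 4.17, 3.57 and 3.24 CPM and 4.77, 4.4, 2.58 and 2.95 CPM, again without overlap. KIF9 had a log2 fold change of -2.06 (SE 0.20, adjusted p = 4.23e-07) in DMEM/F12 and -2.21 (SE 0.20, adjusted p = 2.42e-07) in incubation medium. Beside them, the summed multiciliated markers had a mean of 871 CPM in fresh cells, 133 CPM in DMEM/F12 and 121 CPM in incubation medium, and all 8 were called lower in each medium. The DMEM/F12 libraries held 207, 133, 81.8 and 108 CPM of these markers in replicates 1 to 4, and the incubation medium libraries 165, 123, 87.1 and 109 CPM. Replicate 1 was the highest for the markers and for KIF9 in both media, and for KIF19 in DMEM/F12, whereas KIF19 was highest in replicate 2 in incubation medium. The part of the marker shift in these results was not tested. KIF7 (ENSSSCG00025076237), which acts at the tip of the primary cilium in Hedgehog signalling, fell from 52.2, 45.6, 41 and 56.7 CPM to 37.4, 30.6, 35.9 and 33.7 CPM and 30.3, 25.7, 28.3 and 33.9 CPM. KIF7 had log2 fold changes of -0.51 and -0.73 (adjusted p = 0.00122 and 6.13e-05). KIF3A and KIF3B, which together form the motor of anterograde intraflagellar transport, both fell. KIF3A, whose counts were not whole in 11 libraries, had log2 fold changes of -0.46 and -0.45 (adjusted p = 0.000895 and 0.00104). KIF3B had log2 fold changes of -0.40 and -0.67 (adjusted p = 0.00267 and 3.88e-05). The exception was KIF3C (ENSSSCG00025056700), a relative of KIF3B that can pair with KIF3A and is best known from neurons. It rose from 54, 56, 56.1 and 37.1 CPM to 107, 105, 128 and 87 CPM and 102, 96, 122 and 83 CPM. KIF3C had a log2 fold change of 1.07 (SE 0.15, adjusted p = 2.14e-05) in DMEM/F12 and 0.98 (SE 0.15, adjusted p = 4.7e-05) in incubation medium.

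Motors of vesicle and organelle transport were mostly higher in spheroids, with 6 higher and 0 lower of 8 tested rows in DMEM/F12 and 5 higher and 2 lower in incubation medium. KIF5B (ENSSSCG00025037463), the conventional kinesin heavy chain of non-neuronal cells, went from 63.4, 70.5, 74.4 and 57.4 CPM to 164, 169.5, 191 and 169 CPM and 168, 158, 169 and 135 CPM. KIF5B had a log2 fold change of 1.38 (SE 0.10, adjusted p = 2.69e-08) in DMEM/F12 and 1.24 (SE 0.10, adjusted p = 7.49e-08) in incubation medium. KIF1C (ENSSSCG00025016717), a vesicle motor, went from 38.5, 39.7, 34.5 and 45.9 CPM to 103, 129.6, 119 and 111 CPM and 85.2, 88.8, 88.5 and 89.7 CPM. KIF1C had a log2 fold change of 1.54 (SE 0.10, adjusted p = 6.52e-09) in DMEM/F12 and 1.15 (SE 0.10, adjusted p = 1.04e-07) in incubation medium. In both motors the fresh libraries lay below all spheroid libraries. KIF1A, known as the carrier of synaptic vesicle precursors, had the largest change of the role, 2.91 in DMEM/F12 and 2.68 in incubation medium (adjusted p = 1.11e-06 and 2.75e-06). KIF2A, a microtubule depolymerase, rose by 0.94 and 0.88 (adjusted p = 4.43e-06 and 8.99e-06), and KIF13A, an endosome motor, by 0.50 and 0.31 (adjusted p = 0.000169 and 0.00664). KIF1B (ENSSSCG00025065766), which carries mitochondria and vesicles, was 47.2, 39, 42.9 and 38.1 CPM in fresh cells, 49.9, 46, 68.8 and 48.4 CPM in DMEM/F12 and 32, 32.9, 34.5 and 28.8 CPM in incubation medium. It was called higher in DMEM/F12 (log2 fold change 0.35, SE 0.12, adjusted p = 0.0225), where the groups overlapped, and lower in incubation medium (log2 fold change -0.38, SE 0.13, adjusted p = 0.0145), where they did not. The first call was lost without fresh replicate 2 (0.0606), fresh replicate 4 (0.0626) or DMEM/F12 replicate 3 (0.0622) and the second without fresh replicate 1 (0.0565) or incubation medium replicate 4 (0.0518). The first was also lost with all libraries thinned to the smallest total (0.0548). KIF21A, which restrains microtubule growth, was lower in incubation medium (-0.39, adjusted p = 0.0112) and not called in DMEM/F12 (-0.09, adjusted p = 0.528).

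The polo-like kinases outside mitosis, PLK2 and PLK3, are induced by stress and growth signals, and both were lower in spheroids. PLK2 (ENSSSCG00025046591) was 1249, 1144, 807 and 546 CPM in fresh cells, a wide spread, and 363, 433, 435 and 401 CPM in DMEM/F12 and 360.4, 473, 466 and 335 CPM in incubation medium, all below the lowest fresh library. PLK2 had a log2 fold change of -1.20 (SE 0.21, adjusted p = 0.000116) in DMEM/F12 and -1.20 (SE 0.21, adjusted p = 0.000116) in incubation medium. PLK3 (ENSSSCG00025076032) was 40.4, 65.3, 44.6 and 36.5 CPM in fresh cells, 17.5, 19.5, 22.3 and 16.8 CPM in DMEM/F12 and 10.2, 13.2, 14.9 and 8.58 CPM in incubation medium. PLK3 had a log2 fold change of -1.30 (SE 0.19, adjusted p = 2.5e-05) in DMEM/F12 and -1.99 (SE 0.20, adjusted p = 5.6e-07) in incubation medium, with no overlap between fresh cells and either medium.

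The 2 spheroid media were then compared with each other. Incubation medium spheroids had higher levels of 17 members and lower levels of 5, and 64 were not called. That is 25.6% called, near the background of 25.0% of all tested genes. By direction 19.8% of the members were higher and 5.81% lower, against 12.7% and 12.3% of all tested genes. The media did not overlap in 23 members, or 26.7%, near the 26.9% of all tested genes. The median log2 fold change was 0.12 over the members and -0.00 over all tested genes. With library totals in place of TMM scaling the members split into 11 higher and 12 lower, while all 14070 tested genes split into 1239 higher and 2471 lower with a median log2 fold change of -0.10. Limma on the deposited CPM gave 9 higher and 11 lower members, against 1183 higher and 2399 lower of all genes. With the replicate number as a block 20 members were higher and 9 were lower, against 2329 and 2284 of all genes. Leaving out incubation medium replicate 2 or 3 left 9 and 11 higher calls, and leaving out incubation medium replicate 1 or 4 left 3 lower calls each.

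By role, the rows of the 9 roles grouped as mitotic held 16 of the 17 higher calls and 1 of the 5 lower calls, and 42 of these 47 rows had a positive log2 fold change (38 with library totals, 39 in limma). Among the 39 other rows 1 was called higher, 4 were called lower, and 13 had a positive log2 fold change (8 with library totals, 8 in limma). Called higher were 34.0% of the mitotic rows and 2.56% of the others, beside 12.7% of all tested genes. Called lower were 2.13% and 10.3%, beside 12.3%. These 2 blocks were drawn after the values had been seen, so the split is a description only. With library totals the mitotic rows had 10 higher and 1 lower calls and the other rows 1 higher and 11 lower. In limma these were 8 and 1 for the mitotic rows and 1 and 10 for the others, and with the replicate block 18 and 1, and 2 and 8. The higher calls with TMM scaling were 4 of 6 mitotic kinases and checkpoint genes, 3 of 4 genes of APC/C activation and securin, 3 of 8 mitotic kinesins, 2 of 4 spindle assembly factors, 2 of 4 condensins with TOP2A, 1 of 3 outer kinetochore genes and 1 of 12 inner kinetochore genes. The largest called difference was in DLGAP5, whose libraries are given above and did not overlap between the media (log2 fold change 0.96, SE 0.22, adjusted p = 0.00593). KIF15 (log2 fold change 0.76, SE 0.15, adjusted p = 0.00206), BUB1B (log2 fold change 0.70, SE 0.13, adjusted p = 0.00167), PTTG1 (log2 fold change 0.63, SE 0.12, adjusted p = 0.00176), KIF20A (log2 fold change 0.61, SE 0.11, adjusted p = 0.00156) and TOP2A (log2 fold change 0.60, SE 0.12, adjusted p = 0.00284) likewise had every incubation medium library above every DMEM/F12 library. KIF4A was higher by 0.51 (adjusted p = 0.0122, and 0.0578 in limma) and NCAPG by 0.57 (adjusted p = 0.0109). CDK7, the 1 higher call outside the mitotic roles, differed by 0.39 (SE 0.09, adjusted p = 0.00581) without overlap.

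With the replicate number as a block, 0 of the 22 calls between the media were lost, and with another scaling or tool 9 were. In the fit without the block, 10 of the 22 were lost when some single library was left out. For TTK (0.60, adjusted p = 0.0311) the call went without DMEM/F12 replicate 1 (0.0823), DMEM/F12 replicate 2 (0.0631), DMEM/F12 replicate 3 (0.055), incubation medium replicate 2 (0.0767) or incubation medium replicate 3 (0.0862), with the adjusted p without each in parentheses. For NDC80 (0.68, adjusted p = 0.0435) it went without DMEM/F12 replicate 1 (0.0997), DMEM/F12 replicate 2 (0.055), DMEM/F12 replicate 3 (0.0721), DMEM/F12 replicate 4 (0.094), incubation medium replicate 2 (0.118) or incubation medium replicate 3 (0.127). BIRC5 (0.39, adjusted p = 0.0218) lost its call without DMEM/F12 replicate 1 (0.0577), incubation medium replicate 2 (0.0647) or incubation medium replicate 3 (0.0757). UBE2C (0.37, adjusted p = 0.0242) lost it without DMEM/F12 replicate 1 (0.0573), DMEM/F12 replicate 4 (0.0742), incubation medium replicate 2 (0.0721) or incubation medium replicate 3 (0.081). CDC20 (0.56, adjusted p = 0.0256) depended on DMEM/F12 replicate 3 (0.0704), DMEM/F12 replicate 4 (0.0685), incubation medium replicate 2 (0.061) or incubation medium replicate 4 (0.055), TPX2 (0.46, adjusted p = 0.0157) on incubation medium replicate 2 (0.0525) or incubation medium replicate 3 (0.0589), SGO1 (0.58, adjusted p = 0.0157) on incubation medium replicate 2 (0.051) or incubation medium replicate 3 (0.0538), and CENPA (0.72, adjusted p = 0.0157) on incubation medium replicate 2 (0.0601). The remaining 2, CCND3 and PLK3, are given with the lower calls.

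**Figure D4:**
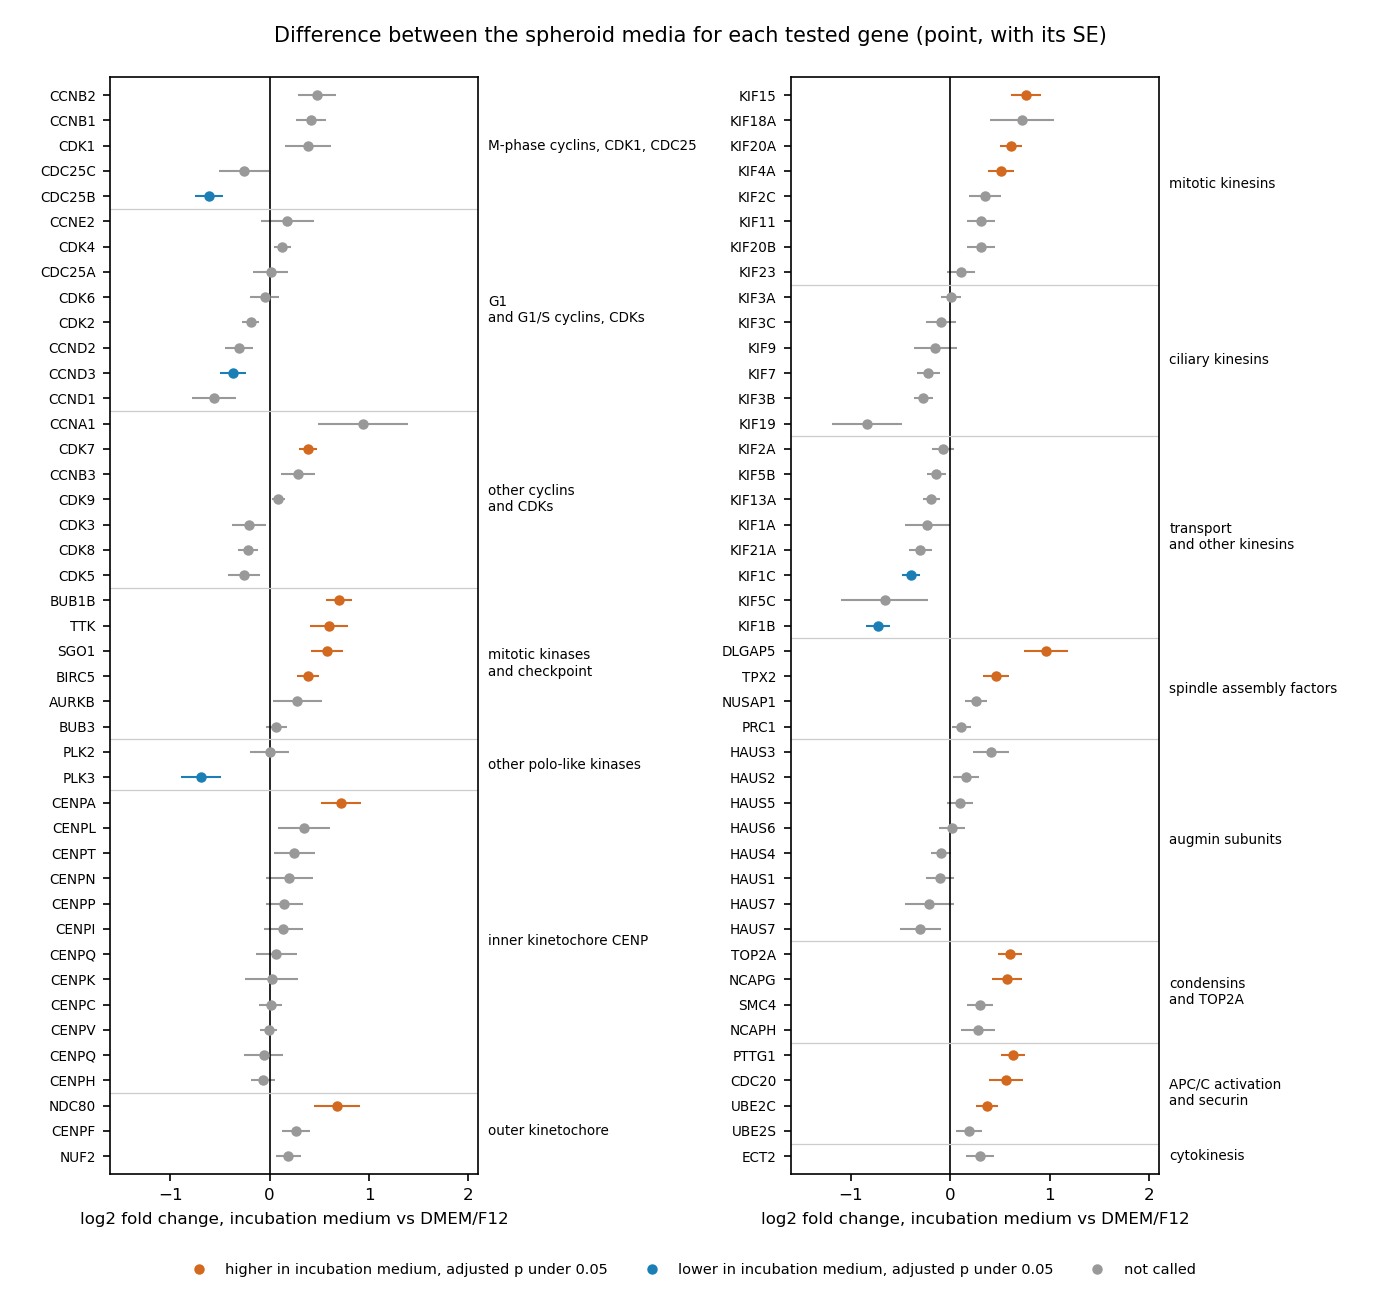
Points are the log2 fold changes of incubation medium against DMEM/F12 spheroids for each of the 86 tested rows, by role, and horizontal bars are their standard errors. The 17 orange points were called higher and the 5 blue points lower in incubation medium at an adjusted p under 0.05; all 8 mitotic kinesins and all 6 mitotic kinases and checkpoint genes lie to the right of 0, and all 8 transport kinesins to the left.

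The 5 lower calls were CDC25B, CCND3, PLK3, KIF1B and KIF1C. CDC25B differed by -0.61 (SE 0.14, adjusted p = 0.00497), KIF1B by -0.73 (SE 0.12, adjusted p = 0.000743) and KIF1C by -0.40 (SE 0.09, adjusted p = 0.00577), each with all incubation medium libraries below all DMEM/F12 libraries. PLK3 differed by -0.69 (adjusted p = 0.0209), also without overlap, and its call was lost without DMEM/F12 replicate 3 (0.0585), incubation medium replicate 1 (0.0587) or incubation medium replicate 4 (0.058). CCND3 differed by -0.37 (adjusted p = 0.0475), with overlap, and lost its call without DMEM/F12 replicate 1 (0.147), DMEM/F12 replicate 3 (0.0821), DMEM/F12 replicate 4 (0.0854), incubation medium replicate 1 (0.0722), incubation medium replicate 2 (0.118) or incubation medium replicate 4 (0.113). The replicate block added calls for CCNB1 (0.40, adjusted p = 0.0322), CCNA1 (0.96, 0.0282) and NUSAP1 (0.26, 0.0379), higher in incubation medium, and for CCND1 (-0.57, 0.0496), CCND2 (-0.30, 0.0202), KIF19 (-0.83, 0.0391) and KIF21A (-0.31, 0.0405), lower. Multiciliated markers, which had separated fresh cells from spheroids, had 0 of 8 calls between the media. Lower in incubation medium were 1 of 3 tested endothelial rows, 2 of 5 stromal and 2 of 7 epithelial rows, and higher were 1 epithelial and 1 of 4 secretory rows. Of all tested genes 12.3% were lower and 12.7% higher. The part of these markers in these results was not tested.

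Other genes of the same pathways are not members of the set and are given for comparison. Their shares of calls stand beside 70.7% of all tested genes called in DMEM/F12 and 71.7% in incubation medium. Among E2F, MuvB and pocket protein regulators, which switch the transcription of division genes on and off, 10 of 16 tested genes were higher and 4 lower in DMEM/F12, and 9 higher and 3 lower in incubation medium. MYBL2, an activator of G2 and M-phase genes, was 1.73 ± 0.293 CPM (SD, n = 4) in fresh cells, 42.6 ± 11.7 CPM in DMEM/F12 and 61.1 ± 21.7 CPM in incubation medium. MYBL2 had a log2 fold change of 4.60 (SE 0.35, adjusted p = 4.38e-08) in DMEM/F12 and 5.12 (SE 0.35, adjusted p = 1.39e-08) in incubation medium. E2F1, the activator of S-phase genes, went from 8.3 ± 1.26 CPM to 21.4 ± 0.307 and 19.8 ± 3.45 CPM. E2F1 had log2 fold changes of 1.36 and 1.25 (adjusted p = 1.33e-06 and 3.24e-06). RBBP4, a chromatin subunit of the MuvB complex, rose by 0.33 and 0.41 (adjusted p = 0.000571 and 8.4e-05).

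Of 8 tested CDK inhibitors 4 were higher and 2 lower in DMEM/F12, and 4 higher and 3 lower in incubation medium. CDKN1B, the p27 inhibitor of resting cells, fell from 79.3 ± 1.39 CPM to 38.4 ± 6.88 CPM in DMEM/F12 and 26.4 ± 4.69 CPM in incubation medium. CDKN1B had a log2 fold change of -1.05 (SE 0.13, adjusted p = 6.22e-06) in DMEM/F12 and -1.58 (SE 0.14, adjusted p = 1.3e-07) in incubation medium, and of -0.54 (SE 0.14, adjusted p = 0.0102) between the media. CDKN1A, the p21 inhibitor induced by p53, rose by 0.48 and 0.53 (adjusted p = 0.0118 and 0.00595). CDKN3, a phosphatase of CDKs that is itself a division gene, rose by 0.80 and 1.48 (adjusted p = 0.00183 and 6.66e-06) and was higher in incubation medium than in DMEM/F12 (0.68, adjusted p = 0.0102). CDKN2B, the p15 inhibitor of CDK4 and CDK6, is named after its values had been seen: it went from 0.521, 0.715, 0.186 and 0.391 CPM in fresh cells, at 1 to 4 counts, to 17.1, 11.5, 15.1 and 12.3 CPM in DMEM/F12 and 18.7, 17.2, 16.8 and 19.8 CPM in incubation medium. CDKN2B had a log2 fold change of 4.88 (SE 0.26, adjusted p = 1.71e-09) in DMEM/F12 and 5.25 (SE 0.26, adjusted p = 7.45e-10) in incubation medium.

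Of 13 tested genes of the kinetochore, checkpoint and passenger complex outside the set, 8 were higher and 2 lower in DMEM/F12, and 8 higher and 1 lower in incubation medium. That is 76.9% and 69.2% called, near the 70.7% and 71.7% of all tested genes. The share called higher was 61.5% in each, beside 35.1% and 35.8%. MAD2L1, the checkpoint protein Mad2, rose from 17.5 ± 0.858 CPM to 32.5 ± 2.54 and 42.2 ± 7.33 CPM. MAD2L1 had log2 fold changes of 0.89 and 1.27 (adjusted p = 1.44e-05 and 3.92e-07). SKA2, which stabilizes kinetochore attachments, rose by 2.04 and 2.21 (adjusted p = 2.81e-07 and 1.21e-07). Of 9 tested spindle and cytokinesis genes 6 were higher and 1 lower in each medium, which is 77.8% called. KIFC1, the minus-end motor that clusters spindle poles, rose from 3.78 ± 0.936 CPM to 30.9 ± 3.22 and 39.3 ± 4.65 CPM. KIFC1 had a log2 fold change of 3.02 (SE 0.16, adjusted p = 1.62e-09) in DMEM/F12 and 3.36 (SE 0.16, adjusted p = 5.88e-10) in incubation medium. RACGAP1, the partner of KIF23 in centralspindlin, rose by 2.68 and 2.88 (adjusted p = 7.04e-08 and 3.29e-08). The gene that fell was NUMA1, a spindle pole protein that is also a nuclear matrix protein between divisions (-0.52 and -0.73, adjusted p = 5.32e-05 and 1.95e-06).

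The lists of APC/C and cohesin genes, which hold subunits together with their regulators, were mixed. APC/C subunits and inhibitors had 7 higher and 2 lower of 15 tested in DMEM/F12, and 9 higher and 1 lower in incubation medium. That is 60.0% and 66.7% called, below the 70.7% and 71.7% of all tested genes. Their log2 fold changes ran from -1.45 to 0.98 and from -1.23 to 1.17. ANAPC15, a subunit that helps to turn the complex on, rose by 0.98 and 1.17 (adjusted p = 6.04e-06 and 1.03e-06). Cohesin and its regulators had 5 higher and 3 lower of 12 in DMEM/F12 and 4 higher and 3 lower in incubation medium, with median log2 fold changes of 0.08 and -0.01. That is 66.7% and 58.3% called, also below the share of all tested genes. The log2 fold changes of this list ran from -0.52 to 2.51 and from -0.76 to 2.8. NIPBL, the cohesin loader, fell by 0.52 and 0.62 on the log2 scale (adjusted p = 1.04e-05 and 2e-06). Regulators of multiciliogenesis, several of which are relatives of cell cycle proteins, had 1 higher and 7 lower of 9 tested in DMEM/F12 and 2 higher and 7 lower in incubation medium. The share called lower was 77.8% in each, beside 35.7% and 35.8% of all tested genes. FOXJ1, the master regulator of motile cilia, fell from 452 ± 13.5 CPM to 88.4 ± 33.4 and 67.4 ± 12.9 CPM. FOXJ1 had a log2 fold change of -2.35 (SE 0.21, adjusted p = 2.31e-07) in DMEM/F12 and -2.75 (SE 0.22, adjusted p = 6.08e-08) in incubation medium. TP73, which acts upstream of it, fell from 74 ± 8.11 CPM to 10.5 ± 2.87 and 12.3 ± 1.97 CPM. TP73 had log2 fold changes of -2.81 and -2.59 (adjusted p = 4.31e-09 and 7.98e-09). E2F4, which builds the multicilin complex but also represses cell cycle genes in resting cells, rose by 0.74 and 0.92 (adjusted p = 1.78e-05 and 1.9e-06). CCNO, a cyclin of centriole amplification, was 10.1, 3.58, 4.1 and 3.32 CPM in fresh cells and had 1 to 3 counts per library in DMEM/F12 and 0 to 10 counts in incubation medium, where it measured 0, 0.267, 0.369 and 1.34 CPM.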

How the data were processed

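The data are 12 bulk 3′ mRNA-seq libraries of porcine oviduct epithelial cells, 4 each of fresh cells, DMEM/F12 spheroids and incubation medium spheroids. Per the labels' protocols, cells were preserved in DNA/RNA Shield, and RNA was primed with oligo-dT, reverse transcribed, made double-stranded, tagmented, indexed and amplified; no molecular identifiers are named. The submitters' processing notes name fastp 0.24.0, STAR 2.7.11, SAMtools 1.22.1, featureCounts and Subread 2.1.1. The genome build is not given in the sources used here.

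The authors deposited a table of counts per gene and a table of CPM, counts scaled to the library total. The deposited counts are estimated counts: per library, 19.09 to 20.51% of those above 0 have a fractional part; how the authors' counting split reads is not given in the sources used here. They were rounded before testing; the design had assumed whole counts. Of 30553 rows, 92 are spike-ins and were left out. The deposited CPM were recomputed from the counts to within 5e-06. CPM printed here use TMM-scaled library sizes.

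Differences were tested with edgeR 4.0.16 (R 4.3.3): filterByExpr, TMM, glmQLFit and glmQLFTest, in 1 fit of all 12 libraries, with Benjamini-Hochberg adjustment over 14070 genes and calls at an adjusted p under 0.05. Log2 fold changes carry SE = |log2 fold change| divided by the square root of F. The fit was also run on simulated counts, with changes in only a small part of the genes and no pairing of libraries. These data differ in both respects, so that run does not check the calls made here. Alternatives used DESeq2 1.42.0, limma 3.58.1 on log2(CPM + 1), other scalings and filters, whole counts only, single libraries left out, and the replicate block; thinning all libraries to the smallest total was added after seeing the data. Members and lists were chosen with earlier results of these data known. Libraries with the same replicate number deviated together in each comparison (correlations of deviations from group means 0.196 to 0.516, against at most 0.0233 for different numbers), so the numbers pair the libraries; this comes from the data, since the labels do not say what the number stands for.

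Values in every library are given for the 2 members with the highest mean CPM in each role, for the 5 largest called changes in each direction and comparison with a mean CPM of at least 5, and for up to 10 members called between the media without overlap. Of other pathway lists up to 4 genes by mean CPM and a few fixed genes may be named. Marker lists were those of multiciliated, secretory, epithelial, stromal, leukocyte and endothelial cells. Gene IDs matched neither reference table, so no coordinates or sequences are given.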

Additional observations from a re-analysis of the deposited data

Results flagged for a closer look

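In 9 of 171 groups of 4 libraries tested for this, 1 library stood far from the other three by Dixon's criterion, which chance alone meets in about 1 of 20 groups. Incubation medium replicate 1 was low for CDC25B, at 52.2 CPM against 65.9 to 68.4 CPM in the other libraries of that medium, and for CENPF, at 56.5 CPM against 64.9 to 66.5 CPM. Fresh replicate 4 was low for KIF3C, at 37.1 CPM against 54 to 56.1 CPM, and high for CENPA, at 1.56 CPM against 0.537 to 0.694 CPM. DMEM/F12 replicate 2 was high for CENPA, at 15.4 CPM against 10.8 to 11.1 CPM, and for the summed mitotic kinesins, at 123 CPM against 108 to 110.2 CPM. DMEM/F12 replicate 1 was high for CENPV, at 146 CPM against 126 to 129.5 CPM. DMEM/F12 replicate 3 was high for KIF1B, at 68.8 CPM against 46 to 49.9 CPM. Incubation medium replicate 2 was low for HAUS4, at 91 CPM against 92.8 to 93 CPM.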

How the results depend on the processing

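Both comparisons with fresh cells kept their counts of calls within 1.5 times under other scalings, tools and filters and with the replicate block. Restricted to genes with whole counts, 44 members were tested: 35 were higher and 6 lower in DMEM/F12 (median log2 fold change 1.19), 34 higher and 7 lower in incubation medium (median 1.35), and 9 higher and 2 lower between the media. Leaving out single libraries gave 58 to 62 higher and 11 to 13 lower in DMEM/F12 (median 0.96 to 1.10), 57 to 62 higher and 11 to 13 lower in incubation medium (median 0.93 to 1.05), and 9 to 21 higher and 3 to 7 lower between the media (median 0.07 to 0.16). Of the 73 calls in DMEM/F12, 69 were kept without each library, as were 68 of 71 in incubation medium and 12 of 22 between the media, and 9 of the 22 were lost with another scaling or tool. Between the media, higher and lower calls were 11 and 12 with library totals, and 9 and 11 in limma on deposited CPM. The replicate block gave 20 higher and 9 lower calls; beside the blocked calls given above it changed no other member's call. Thinning all libraries to the smallest total gave 8 lower calls between the media. The cause of these shifts was not tested, beyond fewer genes or libraries entering a fit. Depth limits the genes at a few counts in fresh cells, such as SGO1 and TTK, and intervals cover counting error only.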
